A study of Mus musculus with 9 samples.

Results

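Mesenchymal transcription factors were examined in primary cultures of urogenital sinus mesenchymal cells, the connective tissue that surrounds the budding fetal prostate. The group holds 10 genes taken from a list of symbols, Hand2, Twist1, Twist2, Tcf21, Osr1, Osr2, Tbx18, Prrx1, Meis1 and Nr2f2, out of 19938 genes measured. All 10 were on the array, each with 1 probeset, so the rule of taking the brightest probeset of a gene had nothing to choose between. The cells came from the prostate of male CD-1 mouse fetuses on gestation day 17 and were used at first passage. They were held for 3 days in hormone-stripped serum and then treated for 4 days. The groups were ethanol vehicle, 10 pM 17beta-estradiol (E2) and 100 pM E2, with 3 Affymetrix Mouse Gene 1.0 ST arrays each, 9 in all. Every group, vehicle included, also received 690 pM dihydrotestosterone (DHT), so no array shows the cells without androgen. Nothing in the labels says whether replicates were separate cultures or litters, so the p-values reflect variation among these 9 samples alone, and that variation may be technical.

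These genes encode proteins that bind DNA and set the identity of connective tissue in the embryo. Hand2, Twist1, Twist2 and Tcf21 are basic helix-loop-helix (bHLH) factors, which pair with E proteins on E-box sites and are held in check by Id proteins. Osr1 and Osr2 are zinc finger factors of the odd-skipped family, Tbx18 is a T-box factor, Prrx1 and Meis1 carry homeodomains, and Nr2f2 is the orphan nuclear receptor COUP-TFII. In the urogenital tract such factors mark mesenchyme that instructs the epithelium beside it, and Hand2 and Nr2f2 are known in the uterine stroma of the mouse as parts of the progesterone response.

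Values are log2 signals, so a difference of 1 is a doubling, and signals of different probesets cannot be compared as amounts of RNA. Array medians were close to 6.2. All 10 factors had mean signals above these medians, as did 9 of 10 markers of fibroblastic mesenchyme and 8 of 8 of smooth muscle. The same held for 4 of 12 epithelial, 3 of 8 endothelial, 3 of 10 macrophage, 1 of 6 mesothelial and 0 of 7 neural markers. The medians were taken over all probesets, also those without a gene symbol. The share of all genes above them is not given here, and the lowest mean among the 10 factors was 6.61. No detection calls were used here, so a probeset at or below the median was not shown to be absent. Exactly equal values recurred between arrays in the deposited table, for 72.7% of all genes and for 8 of the 10 factors. Where all arrays of a group share or nearly share a value, its SD is near 0. Where only 2 of 3 share it, the SD need not be small, as for Osr1 in vehicle (0.0529). How the equal values arose was not tested.

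Of the 10 factors, 1 differed among the 3 groups past the threshold, Tcf21 (limma F test, adjusted p = 0.0399). A gene is called here at an adjusted p below 0.05 in limma with the Benjamini-Hochberg correction over all 19938 genes, and 0.843% of them were called in this test. Tcf21, a bHLH factor of kidney, lung, heart and gonad mesenchyme, fell at 100 pM E2 relative to 10 pM. Its F test call was lost when any single array was left out (adjusted p between 0.0579 and 0.117). With 1 array left out this test called between 85 and 176 of all genes, against 168 with all arrays. Hand2 came next, with its highest signals at 10 pM, and was not called (adjusted p = 0.0835). The remaining 8 factors had adjusted p-values between 0.475 and 0.996.

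Tcf21 lies on chromosome 10 (22817263 to 22820143, GRCm38.p6). Its signals were 7.48, 7.50 and 7.60 on the vehicle arrays, 7.60, 7.60 and 7.57 on the 10 pM arrays, and 7.30, 7.12 and 7.29 on the 100 pM arrays. All 100 pM arrays lay below every array of the other groups, whereas 10 pM and vehicle overlapped. Against 10 pM E2, Tcf21 fell by 0.36 ± 0.06 at 100 pM (log2 difference ± SE, n = 3 arrays per group, adjusted p = 0.0242), which is 0.781 times the 10 pM level. Against vehicle the difference at 100 pM was -0.29 ± 0.06, or 0.819 times, and just missed the threshold (adjusted p = 0.0506). At 10 pM the difference from vehicle was 0.068 ± 0.06 (adjusted p = 1.00), with a 95% interval of the single gene between -0.058 and 0.19. The lowest value came from the second 100 pM array. Without it the differences of 100 pM were -0.30 from 10 pM (adjusted p = 0.0437) and -0.23 from vehicle (adjusted p = 0.105). The call against 10 pM was lost without the first or the second vehicle array (adjusted p = 0.0508 and 0.0517) and without any of the 10 pM arrays (adjusted p = 0.114, 0.116 and 0.094). Over the 18 other ways of fitting the data the difference from 10 pM lay between -0.39 and -0.30, with adjusted p-values of 0.01 to 0.116. In a culture that may hold several kinds of cells, fewer cells with Tcf21 and less Tcf21 RNA per cell cannot be told apart.

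**Figure D1:**
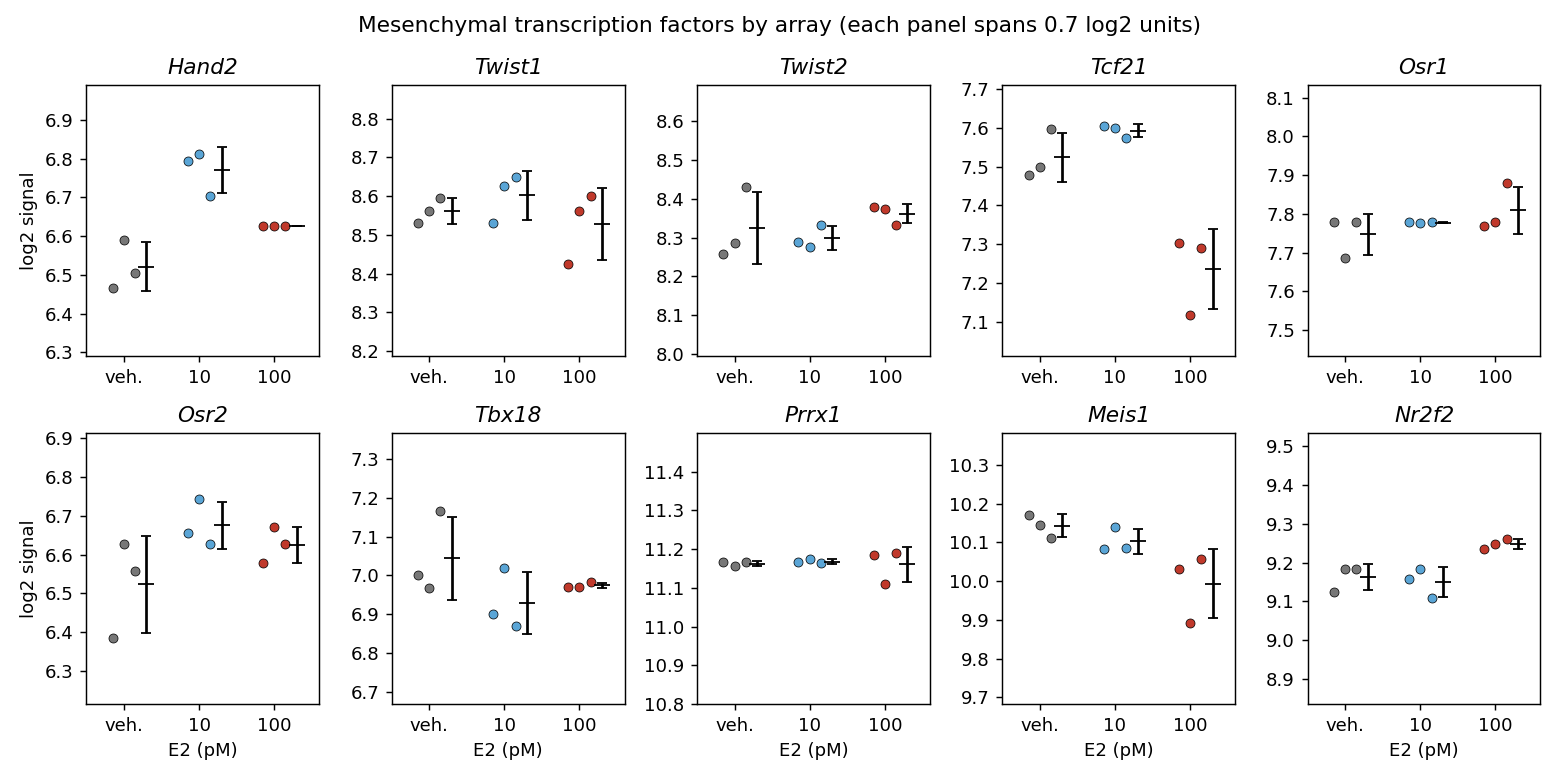
Log2 signal of the 10 transcription factors on each array of cells given vehicle (veh.), 10 pM or 100 pM E2. Each point is an array, with the mean and SD of the group (n = 3) drawn beside it. Every panel spans 0.7 log2 units at its own level. Tcf21 lay between 7.12 and 7.30 at 100 pM, below all other arrays, and Hand2 lay between 6.70 and 6.81 at 10 pM, above all other arrays.

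Hand2, a bHLH factor of heart, limb and neural crest that is also expressed in reproductive tract stroma, lies on chromosome 8 (57320983 to 57324517). It had signals of 6.47, 6.59 and 6.51 in vehicle, 6.80, 6.81 and 6.70 at 10 pM and 6.63, 6.63 and 6.63 at 100 pM. No array of any group overlapped those of another group, and the order of the groups was vehicle, 100 pM, 10 pM. At 100 pM 2 arrays held exactly the same Hand2 value, and the SD was 0.0006, against 0.0632 in vehicle and 0.0585 at 10 pM. So small an SD lowers the spread behind the SE and p-values of Hand2, and how it arose was not tested. The difference of Hand2 at 10 pM from vehicle was 0.25 ± 0.04, or 1.19 times. Its unadjusted p was 0.00033, and the adjusted p was 0.794 (limma), in a comparison that called no gene at all. At 100 pM Hand2 differed by 0.10 ± 0.04 from vehicle (adjusted p = 0.44) and by -0.145 ± 0.04 from 10 pM (adjusted p = 0.275). In the contrast of 10 pM E2 with the mean of the other groups, which asks for a non-monotonic response, the difference was 0.20 ± 0.04 (adjusted p = 0.30). The difference between 10 pM and vehicle lay between 0.22 and 0.28 over the 18 other ways of fitting, none of which called it. In the F test Hand2 was called under 1 of 18 others, when the dimmest 30% of genes were left out (adjusted p = 0.039, range over the others up to 0.267).

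The promoters of Tcf21 and Hand2, the factors with the smallest F test p-values, are given to show which E-boxes (CANNTG, the sites bHLH factors bind) they hold. They are RefSeq sequence of the 250 bases before the start of transcription (GRCm38.p6), 5′ to 3′, with E-boxes in capitals. They lie at chr10:22820144-22820393 on the minus strand for Tcf21 and chr8:57320733-57320982 on the plus strand for Hand2.
Tcf21: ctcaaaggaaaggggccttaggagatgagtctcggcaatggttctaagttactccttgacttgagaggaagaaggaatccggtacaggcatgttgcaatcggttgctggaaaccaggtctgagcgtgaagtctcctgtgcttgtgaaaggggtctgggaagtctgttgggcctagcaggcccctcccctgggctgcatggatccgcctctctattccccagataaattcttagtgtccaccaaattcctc
Hand2: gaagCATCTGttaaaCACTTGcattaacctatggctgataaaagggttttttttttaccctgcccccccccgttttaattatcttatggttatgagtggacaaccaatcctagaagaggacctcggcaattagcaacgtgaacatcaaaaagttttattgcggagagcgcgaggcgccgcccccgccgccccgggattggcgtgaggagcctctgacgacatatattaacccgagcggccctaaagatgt

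The other bHLH factors were nearly flat. Twist1, which drives the passage of epithelial cells into mesenchyme, had signals of 8.53, 8.56 and 8.59 in vehicle, 8.53, 8.63 and 8.65 at 10 pM and 8.42, 8.56 and 8.60 at 100 pM. The groups overlapped throughout. The difference at 100 pM was -0.034 ± 0.05 from vehicle (95% interval -0.16 to 0.088) and -0.074 ± 0.05 from 10 pM. Twist2, its close relative in dermal and bone mesenchyme, had signals of 8.26, 8.29 and 8.43 in vehicle, 8.29, 8.28 and 8.33 at 10 pM and 8.38, 8.37 and 8.33 at 100 pM. It differed at 100 pM by 0.037 ± 0.05 from vehicle (95% interval -0.073 to 0.15).

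The odd-skipped factors were called in no comparison. Osr1, an early factor of intermediate mesoderm, the source of kidney and gonad, gave 7.78 on 2 vehicle arrays and 7.69 on the other. The 10 pM arrays were all at 7.78, and the 100 pM arrays at 7.77, 7.78 and 7.88. Of the 9 arrays 5 held exactly the same Osr1 value, and its difference at 100 pM from vehicle was 0.061 ± 0.04 (adjusted p = 0.667). Osr2, known from palate and limb development, had signals of 6.38, 6.63 and 6.56 in vehicle, 6.66, 6.74 and 6.63 at 10 pM and 6.58, 6.67 and 6.63 at 100 pM. The highest Osr2 value in vehicle equalled the lowest at 10 pM (6.63), and no 10 pM array lay below a vehicle array. The lowest value was that of the first vehicle array. Its difference from vehicle was 0.15 ± 0.06 at 10 pM (unadjusted p = 0.0406, adjusted p = 1.00, limma) and 0.10 ± 0.06 at 100 pM (adjusted p = 0.624). Without the first vehicle array these were 0.083 and 0.033.

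Tbx18, a factor of ureter and epicardial mesenchyme, had signals of 7.00, 6.97 and 7.17 in vehicle, 6.90, 7.02 and 6.87 at 10 pM and 6.97, 6.97 and 6.98 at 100 pM. The third vehicle array stood above the rest, and the groups overlapped. Its largest difference was that of 10 pM from vehicle, -0.12 ± 0.06 (adjusted p = 1.00). Prrx1, the paired-related homeobox factor of limb and facial mesenchyme, moved least of the 10 at 100 pM. Its signals were 11.17, 11.16 and 11.17 in vehicle, 11.17, 11.17 and 11.16 at 10 pM and 11.18, 11.11 and 11.19 at 100 pM. The second 100 pM array was lowest, and the difference at 100 pM from vehicle was -0.0014 ± 0.03 (95% interval -0.079 to 0.077).

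Meis1, a homeodomain cofactor of Hox and Pbx proteins, had signals of 10.17, 10.15 and 10.11 in vehicle, 10.08, 10.14 and 10.09 at 10 pM and 10.03, 9.89 and 10.06 at 100 pM. The 100 pM arrays lay below all others, and the second of them was lowest. Meis1 differed at 100 pM by -0.15 ± 0.05 from vehicle (unadjusted p = 0.0127, adjusted p = 0.268, limma), and by -0.11 ± 0.05 from 10 pM (adjusted p = 0.488). Without the second 100 pM array the difference from vehicle was -0.099 (adjusted p = 0.524). Nr2f2, the COUP-TFII receptor, had its highest signals at 100 pM. Its signals were 9.12, 9.18 and 9.18 in vehicle, 9.16, 9.18 and 9.11 at 10 pM and 9.24, 9.25 and 9.26 at 100 pM, where all arrays lay above the others. The difference at 100 pM was 0.085 ± 0.04 from vehicle (adjusted p = 0.434) and 0.098 ± 0.04 from 10 pM (adjusted p = 0.376), or 1.06 and 1.07 times. For both genes the 100 pM arrays stood apart without passing the threshold.

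**Figure D2:**
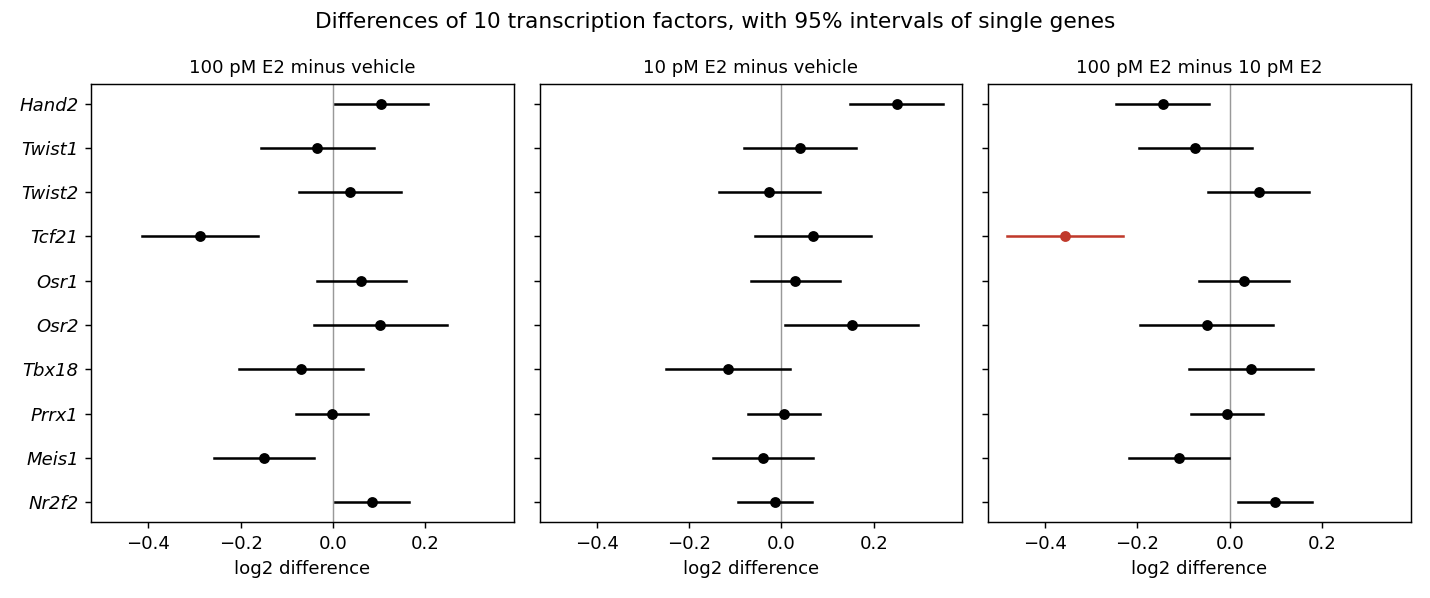
Log2 differences of the 10 factors between 100 pM E2 and vehicle, 10 pM E2 and vehicle, and 100 pM and 10 pM E2. Points are limma estimates from 3 arrays per group and lines are 95% intervals of single genes, not adjusted for the number of genes. Red marks the gene called over all genes, Tcf21 with -0.36 in the contrast of the doses.

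The counts over the factors are set beside those over all genes. At 100 pM against vehicle 5 were higher and 5 lower, with a median of 0.018 (0.0049 over all genes) and a median size, regardless of sign, of 0.0775 (0.0503 over all genes). None was called in either direction, where 0.446% of all genes rose and 0.687% fell. For 4 of the 10 the 100 pM and vehicle arrays were fully separate, namely Hand2, Tcf21, Meis1 and Nr2f2, against 12.5% of all genes, and the same 4 had an unadjusted p below 0.05 (10.9% of all genes). At 10 pM against vehicle 6 were higher and 4 lower, with a median of 0.018 (0.0045 over all genes) and a median size of 0.0402 (0.0375 over all genes). No factor was called there, as for all genes (0% higher and 0% lower). By limma's unadjusted p 2 of the 10 factors were below 0.05, Hand2 and Osr2, against 3.54% of all genes (705 genes). Hand2 alone did not overlap, against 5.93% of all genes. Between 100 pM and 10 pM 4 were higher and 6 lower, with a median of -0.028 (0.0006 over all genes) and a median size of 0.0686 (0.0483 over all genes). Tcf21 was the 1 factor called, among the 0.607% of genes that were lower, and 0 were called higher (0.226% of genes). Hand2, Tcf21, Meis1 and Nr2f2 did not overlap between the doses, against 12.3% of genes. These comparisons share arrays and are not independent of each other. With the factors so few, the counts are a description and were not tested. The factors were also chosen with earlier results of these data known, so a share above that of all genes is no support for a response of the group.

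A highest mean at 10 pM was found for 5 factors, Hand2, Twist1, Tcf21, Osr2 and Prrx1, and a lowest mean there for 3, Twist2, Tbx18 and Nr2f2. The means of Osr1 ran upward with dose and those of Meis1 downward. Over all genes 32.1% had the highest and 29.1% the lowest mean at 10 pM. The non-monotonic contrast called none of the factors and 0.00502% of genes (1 gene). Its largest values among the factors were 0.21 ± 0.05 for Tcf21 (adjusted p = 0.432) and 0.20 for Hand2.

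Among the 45 pairs of factors, Pearson correlations over the 9 arrays ran between -0.77 and 0.81, with a median of 0.052. They are descriptions only, since the arrays of a group share a treatment and each value of an array comes from the same RNA. The highest were those of Hand2 with Osr2 (0.81) and of Tcf21 with Meis1 (0.81), and the lowest was that of Tcf21 with Nr2f2 (-0.77). Taken as deviations from the group means, Hand2 and Osr2 had 0.78 and Tcf21 and Meis1 0.60, while Tcf21 and Nr2f2 had 0.27. The highest correlation within groups was that of Prrx1 with Meis1 (0.92), both lowest on the second 100 pM array. That array held the lowest of all 9 values for 3 factors, as did the first vehicle array.

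Tcf21 was the factor called in some comparison, and the genes whose signals followed it most closely over the 9 arrays were Fmo1 (r = 0.99), a flavin monooxygenase, Txnip (0.98), the thioredoxin inhibitor that responds to glucose, and Ints6l (0.98). The most opposite was Havcr2 (-0.97), the immune receptor TIM-3. At 100 pM Fmo1 fell by 0.56 ± 0.07 against vehicle (adjusted p = 0.00841), and Txnip fell by 0.37 ± 0.05 (adjusted p = 0.0128). Ints6l differed by -0.19 ± 0.05 (adjusted p = 0.138), and Havcr2 rose by 0.57 ± 0.09 (adjusted p = 0.0242). These genes were picked out of all genes for their correlation with Tcf21 on the same arrays, so their differences at 100 pM follow from that choice and are no separate support for that of Tcf21.

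**Figure D3:**
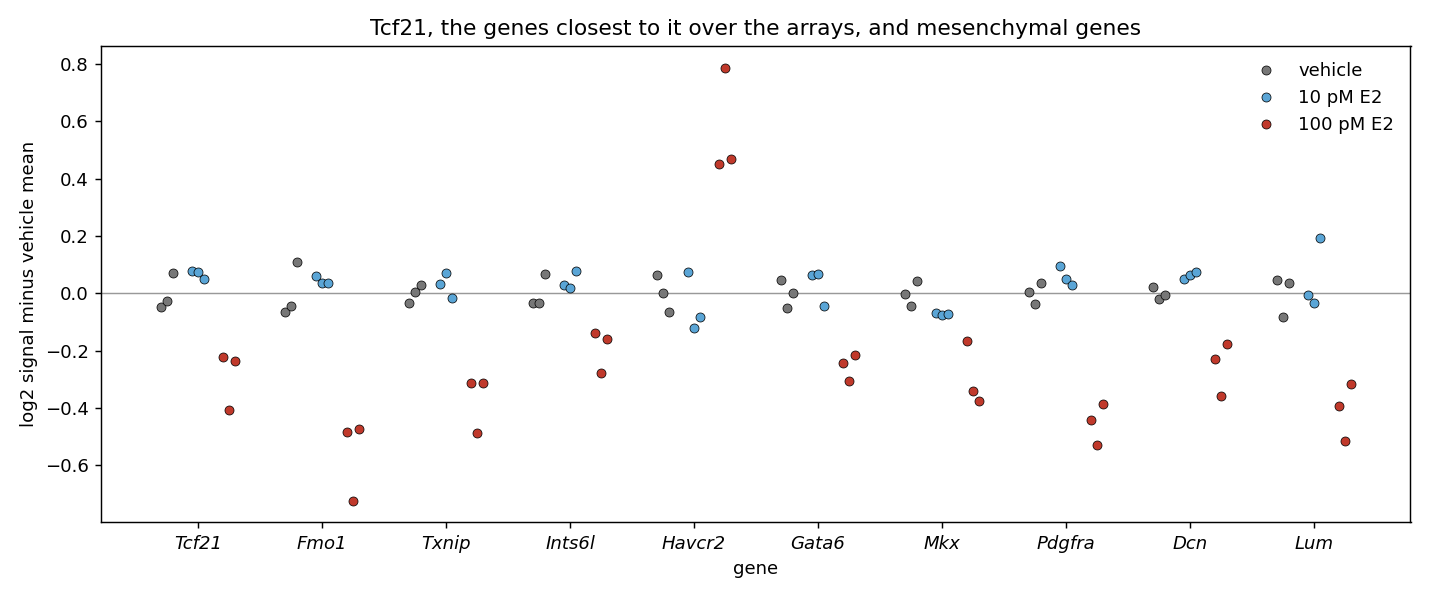
Log2 signal minus the vehicle mean for Tcf21, for the genes that followed or opposed it most closely over the 9 arrays (Fmo1, Txnip, Ints6l and Havcr2), for the transcription factors Gata6 and Mkx, and for the mesenchymal genes Pdgfra, Dcn and Lum. Points are single arrays of vehicle, 10 pM and 100 pM E2. All genes shown except Havcr2 were lower on the 100 pM arrays than on the vehicle arrays, and Havcr2 was higher by 0.57. Gata6, Mkx, Pdgfra, Dcn and Lum are list genes that were called lower, so their direction follows from that choice. In the full lists, 15 of 31 other transcription factors and 3 of 10 mesenchyme markers were higher at 100 pM than in vehicle.

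Partners and relatives of the factors were called in no comparison. Of the 7 E protein and Id genes, 3 were higher and 4 lower at 100 pM than in vehicle (median -0.054). The smallest p-values were those of Id2 and Id3, which bind E proteins and keep bHLH factors from DNA. Id2 differed by -0.21 ± 0.09 (adjusted p = 0.425) and Id3 by -0.13 ± 0.06 (adjusted p = 0.438). Among 5 measured genes of Pbx and Pknox homeodomain partners the median was -0.027, with -0.21 ± 0.06 for Pknox2 (adjusted p = 0.203) and 0.021 for Pbx3. Of 13 closest relatives 6 were higher and 7 lower (median -0.041). Meis2, the relative of Meis1, differed by -0.15 ± 0.06 (adjusted p = 0.374) and Nr2f1, the relative of Nr2f2, by -0.14 ± 0.06 (adjusted p = 0.483).

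Among 31 other measured transcription factors of mesenchyme, 2 fell and 0 rose at 100 pM against vehicle, and 15 were higher and 16 lower (median -0.0092). Gata6, a zinc finger factor of visceral mesoderm, had signals of 8.79, 8.73 and 8.82 at 100 pM, against 9.09, 8.99 and 9.04 in vehicle. It fell by 0.25 ± 0.05 against vehicle (adjusted p = 0.0407) and by 0.28 ± 0.05 against 10 pM (adjusted p = 0.0305), the 1 gene of this list called between the doses. Mkx, the homeobox factor Mohawk of tendon, had signals of 6.50, 6.32 and 6.29 at 100 pM, against 6.66, 6.62 and 6.71 in vehicle. It fell by 0.29 ± 0.06 (adjusted p = 0.045). For both genes the 100 pM arrays lay below all vehicle and 10 pM arrays, and for Gata6 the 10 pM and vehicle arrays overlapped.

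**Figure D4:**
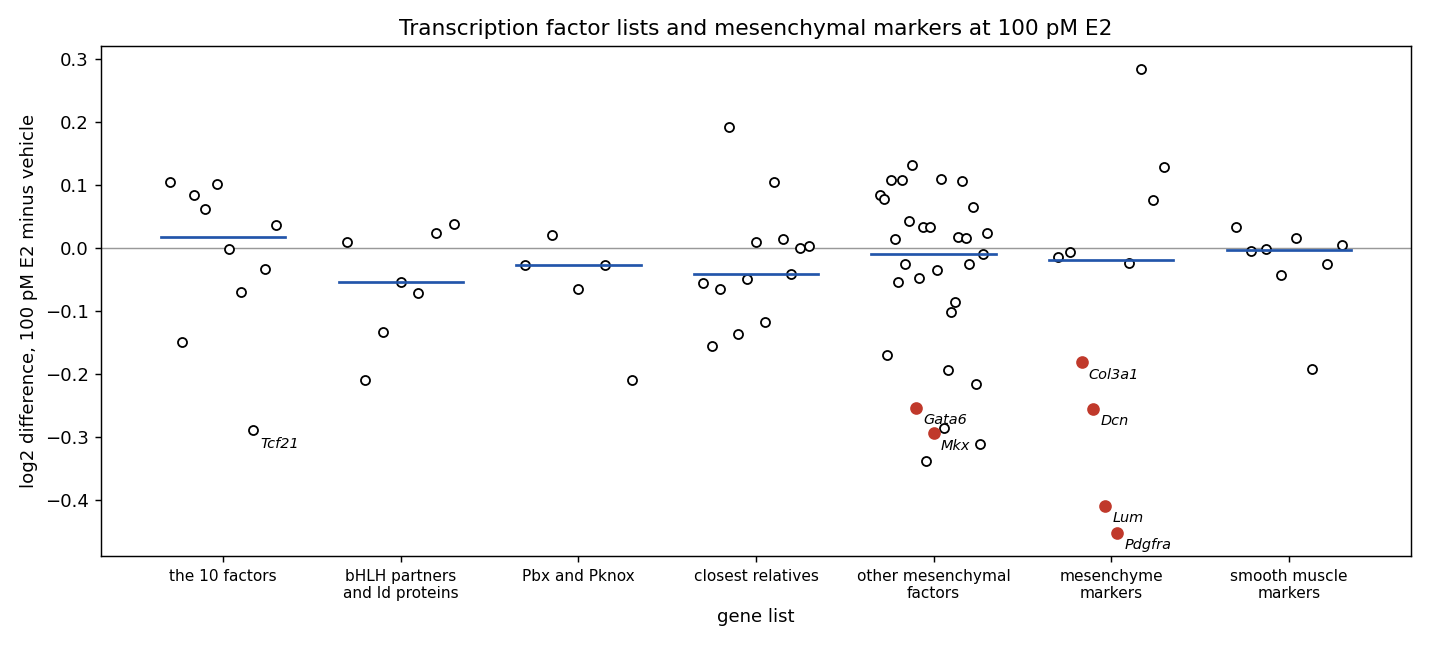
Log2 differences between 100 pM E2 and vehicle for the 10 factors, their partners and relatives, other mesenchymal transcription factors, and markers of mesenchyme and smooth muscle. Each point is a gene, blue lines are list medians, and red points are genes called over all genes. Red points are Gata6 and Mkx among the other factors and Col3a1, Dcn, Lum and Pdgfra among the markers, and all of them lie below 0.

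In mouse uterine stroma Hand2 acts downstream of the progesterone receptor and represses fibroblast growth factor genes. Whether Hand2 acts on such genes in these cells was not tested. Of 7 genes from the uterine setting, 1 rose and 1 fell at 100 pM against vehicle. Pgr, which encodes the progesterone receptor and is induced by estrogens in many tissues, had signals of 7.55, 7.84 and 7.90 at 100 pM, against 6.57, 6.84 and 6.77 in vehicle (adjusted p = 0.00359). Fgf18 fell by 0.75 ± 0.09 (adjusted p = 0.00752), with signals of 7.95, 7.72 and 7.83 at 100 pM, against 8.52, 8.43 and 8.81 in vehicle. At 10 pM, where Hand2 was highest, Fgf18 had signals of 8.35, 8.34 and 8.27 and differed by -0.26 from vehicle (adjusted p = 1.00). The other fibroblast growth factor genes of the list went both ways there, with 0.10 for Fgf1, 0.052 for Fgf9 and -0.13 for Fgf2 (adjusted p = 1.00 for each).

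The markers of mesenchyme called at 100 pM against vehicle were all lower, while some of those not called were higher. Of 10 markers of fibroblastic mesenchyme, 4 fell at 100 pM against vehicle and 0 rose. They were Pdgfra (-0.45 ± 0.04, adjusted p = 0.00359), a growth factor receptor of fibroblasts, Lum (-0.41 ± 0.07, adjusted p = 0.0384) and Dcn (-0.25 ± 0.05, adjusted p = 0.0421), which encode proteoglycans, and Col3a1 (-0.18 ± 0.03, adjusted p = 0.0469), a collagen chain. The mean log2 signal over the 10 markers ran between 10.65 and 10.72 on the 100 pM arrays, against 10.76 to 10.79 on the vehicle arrays, and their median difference was -0.018. Of the 6 not called, 3 were higher at 100 pM, named here after their values were seen. Vim, the filament protein vimentin, differed by 0.13 ± 0.04 (adjusted p = 0.282), S100a4, a calcium-binding protein, by 0.28 ± 0.11 (adjusted p = 0.411) and Thy1, a surface protein of fibroblasts, by 0.077 ± 0.05 (adjusted p = 0.638). The 100 pM arrays lay above all vehicle arrays for Vim and S100a4. Col1a1, Col1a2 and Pdgfrb differed by -0.013, -0.0058 and -0.023. Pdgfra, Lum and Dcn were also lower at 100 pM than at 10 pM (-0.51, -0.46 and -0.32, all called). Smooth muscle markers were called in no comparison, with a median of -0.0028 at 100 pM against vehicle and values of -0.19 ± 0.05 for Myh11 (adjusted p = 0.122) and 0.033 for Acta2.

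Most markers of other cells lay at or below the array medians. Over 10 macrophage markers the mean signal ran between 5.54 and 5.60 at 100 pM, against 5.77 to 5.92 in vehicle, and C1qb fell by 0.51 ± 0.09 (adjusted p = 0.0433). All C1qb signals lay below the array medians, and those of all 10 pM arrays and the first vehicle array were exactly equal (5.51). Equal values within a group lower the spread behind its SE and p-value. Over 8 endothelial markers the mean signal was 6.06 on all 100 pM arrays, against 6.07 to 6.15 in vehicle. Kdr was lower (-0.98) and Emcn higher (0.82) at 100 pM than in vehicle, both called. Over 12 epithelial markers the mean signal ran between 5.86 and 5.95 at 100 pM, against 5.79 to 5.87 in vehicle. Krt18 was called between the doses, 0.57 ± 0.10 higher at 100 pM than at 10 pM (adjusted p = 0.0428). It was not called against vehicle (0.43, adjusted p = 0.112). Mesothelial and neural markers were called in no comparison, with Muc16 at 0.34 for 10 pM against vehicle (adjusted p = 0.995), Upk1b at 0.22 for 100 pM against vehicle (adjusted p = 0.448), and Sox10 and Chga at 0.16 and -0.086 for 100 pM against vehicle. The part of cell composition in the fall of Tcf21 was not tested.

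Promoter sequence was found for 8 of the 10 factors, Osr1 and Osr2 not among them. For 2 minus-strand genes the window lay inside the gene span and so does not precede its outermost start. These were Prrx1 (window 163313651 to 163313900, gene to 163315145) and Meis1 (window 19018970 to 19019219, gene to 19019651). The Tcf21 window held no E-box, whereas Hand2 had 2, at bases 246 to 241 (CATCTG) and 235 to 230 (CACTTG) before the start, and Meis1 had 1 (CATGTG). E-boxes were found in 4 of 8 factors, the others being Tbx18 and Nr2f2, and in 66.2% of the 32851 mouse promoter windows of this length. The E-box form CAGCTG, which is one of the CANNTG sequences, was in 0 of 8 and in 13% of all windows. The nuclear receptor half-site AGGTCA was in 0 of 8 (14% of all), and the palindromic estrogen response element, which overlaps it in the letters GGTCA, in 0 of 8 (0.0639% of all). Both strands were searched. The Meis-type site TGACAG was in 1 of 8, Twist2 (15.9% of all). The share of G and C ran between 47.6% in Prrx1 and 68.8% in Twist2, with a median of 53.2% (52.4% over all windows). The ratio of observed to expected CpG was 0.29 for Tcf21, 0.99 for Hand2 and 0.60 for Meis1, and its median was 0.668 over the 8 factors, against 0.373 over all windows. A match of letters is a description and not a binding site.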

How the data were processed

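RNA of 9 samples was measured on Affymetrix Mouse Gene 1.0 ST arrays, 3 per group, grouped by the labels. The authors turned scanned images into log2 values per probeset with GCOS and the Gene Expression Console (versions and summary method not given in the sources used here). The log2 scale was read from the range of the deposited values, array medians were nearly equal and genes were not centred. Scanner files, detection calls and scan batches were not used, and the number of arrays limits precision.

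Of 35556 probesets, 21789 had 1 gene symbol in a platform annotation from GEO, 1621 had several and 12146 none here. Symbols were updated by Entrez identifier, which matched for 21698. The brightest probeset was kept per gene, leaving 19938 genes without a filter. Chromosome positions follow GRCm38.p6.

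All 9 arrays were fitted across all genes with limma 3.58.1 in R 4.3.3 (1 mean per group, lmFit, eBayes), two-sided, with Benjamini-Hochberg adjustment over all genes and a threshold of 0.05. The step was tested on simulated data. The study's own test was one-way analysis of variance over the groups. The factors and lists were chosen with earlier results of these data known. Named are the 10 factors, genes called in each list or else the 2 of smallest F test p, the genes most and least correlated with a called factor, and Pgr. Some genes of these lists are not reported here. Alternatives were other scalings, filters, probeset rules, variance models, array weights, a replicate block, other arrays in the fit, a threshold of 0.10 and leaving out each array. Promoter windows came from a RefSeq table. Figures were drawn with matplotlib 3.10.9.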

Additional observations from a re-analysis of the deposited data

How the results depend on the processing

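Under the 19 alternatives 719 of 750 values of single factors kept their direction and side of the threshold. The 18 changes of sign were all in values called under neither setting, at most 0.0339 in size, and 0 called values reversed. The 13 changes of call all concerned Tcf21. For the F test, 1 factor was called, against 0 when all probesets were tested (Tcf21 adjusted over more tests), 0 with the replicate block and 0 by one-way analysis of variance, 2 (Tcf21 and Hand2) with the dimmest 30% of genes left out or at an adjusted p below 0.10, and 0 without any single array. By the unadjusted threshold of 0.01 that the methods used, analysis of variance passed 2 of the 10 factors, Tcf21 and Hand2, against 2.66% of all genes. For 100 pM against vehicle, 0 factors were called, against 1, Tcf21, with quantile normalization, the dimmest genes left out, probesets averaged, trend and robust eBayes, array weights or an adjusted p below 0.10 (adjusted p between 0.0233 and 0.216 over the alternatives). For 100 pM against 10 pM, 1 was called, against 0 with all probesets tested (adjusted p = 0.0846) or only the compared groups fitted (adjusted p = 0.109), and 0 to 1 without single arrays. Fewer or more genes or arrays enter some of these fits by construction, and for the others the cause was not tested. Every alternative called 0 factors for 10 pM against vehicle and in the non-monotonic contrast, which needs all groups and so had no fit of the compared groups alone. With the replicate block the Tcf21 difference between the doses stayed called (adjusted p = 0.0484), but arrays of different groups share only a number. Their deviations correlated by -0.11 to 0.20, above 0.1 for 1 of 9 same-number pairs, and the best match was the own number in 5 of 18 cases. The 3 arrays per group limit how small a difference can be called. What the equal values shared by arrays do to the calls was not tested.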
